A study of Mus musculus with 80 samples.

Results

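RNA of 34 mouse genes that copy DNA in S phase was followed in blood-forming stem cells (HSC, hematopoietic stem cells) and in progenitors (HPC), before and after birth. The genes were taken by symbol, as the Mcm2 to Mcm7 helicase genes and 28 others named below, out of 41388 genes in a first table of ages and 40481 in a second table of genotypes. All 34 had an Ensembl row in both tables, and all 34 passed the filter on low values in every comparison. The age series held 26 HSC libraries, at E14, E16, E18, P0, P7, P14 and 8 weeks (Adult), and 20 HPC libraries, at E16, P0, P7, P14 and Adult. Groups had 3 to 5 libraries, and the embryonic ages are labelled E14.5, E16.5 and E18.5. The genotype series held P0 HSC labelled wild type (5 libraries) or Ifnar -/- (4), P0 HPC with the same labels (4 and 4), and P14 HPC of 4 genotypes. These P14 genotypes were Ifnar +/-, Flt3 +/+ (4 libraries), Ifnar +/-, Flt3 ITD/+ (4), Ifnar -/-, Flt3 +/+ (4) and Ifnar -/-, Flt3 ITD/+ (5). Ifnar stands for the receptor of type I interferon, and Flt3 ITD for an internal tandem duplication that makes the Flt3 cytokine receptor signal without its ligand. All mice were on the B6 background. By their labels, the P14 controls also carried an altered Ifnar allele, while the P0 controls did not. The labels name neither the organ, the surface markers of the sort, the kind of Ifnar allele, nor whether animals were pooled.

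A cell copies its genome by loading the MCM helicase onto origins with ORC, Cdc6 and Cdt1, and by switching that helicase on in S phase with Cdc45, Mcm10 and the GINS complex. Primase and the polymerases then make DNA on a sliding clamp, Pcna, that the RFC loader places, while ribonucleotide reductase, thymidylate synthase and thymidine kinase supply deoxynucleotides. Most of these genes are transcribed in waves under E2F factors as cells pass from G1 into S phase, so their RNA is widely used as a mark of cycling cells. Fetal HSC are known to cycle and most adult HSC to rest, with the change placed after birth in mice. HPC divide more often than HSC at adult ages.

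Levels are given as RPKM, reads scaled for exon length and for the size of the library, and then between libraries by TMM factors (a scaling that assumes most genes are unchanged). Depth was 6950206 to 25382447 reads on genes in the age series, 11683086 to 46302596 at P0 in the genotype series and 58400350 to 92099541 at P14. Called, here, means an adjusted p under 0.05, with the adjustment over all genes tested. The labels do not say that replicates came from separate animals, so the p-values measure only the spread between these libraries. The labelled cell types matched their markers: the mean log2 level of 14 HSC markers was 5.14 to 5.50 over the HSC ages and 3.41 to 3.92 over the HPC ages. Mean Ifnar1 RNA was 10.5 RPKM in Ifnar -/- against 9.91 in wild type P0 HSC, and 12 against 9.06 RPKM in P0 HPC. In P14 HPC it was 10.2 RPKM in Ifnar -/- against 6.59 in Ifnar +/- libraries with Flt3 +/+, and 9.15 against 9.68 RPKM with Flt3 ITD/+. Since the labels do not give the altered part of the gene, this RNA does not check the genotype labels. Library titles carry a code that E14, E16 and E18 HSC share, that P7 and P14 HSC share, and that P0 and Adult HSC share. Each HPC age has a code of its own, so HPC age and code cannot be told apart. In such bulk samples, fewer cells of a type and less RNA per cell cannot be told apart either.

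Promoters are shown for 4 members whose letters match an E2F site ahead of the start, as examples from 3 steps of copying DNA: loading the helicase (Cdc6), the helicase itself (Mcm5 and Mcm6) and starting strands (Pola1). RefSeq promoters (GRCm38.p6, 250 bases before to 50 after the start) were found for 28 of the 34 genes. The letters TTTCCCGC, TTTGGCGC or TTTGCCGC, on either strand, were in the promoters of 9 of these 28 genes (32.1%) and of 619 of 27025 genes in the table (2.29%). The 9 were Mcm3, Mcm5, Mcm6, Mcm7, Cdc6, Cdt1, Gins3, Pola1 and Pold1. Promoters were also found for 35 other replication genes, and 8 of these genes (22.9%) held the same letters, so the letters were not particular to the members. Among 17 genes of G2 and mitosis, 0 promoters held these letters and 15 (88.2%) held CCAAT, which was in 64.3% of the members and 41.1% of all genes. This last match was in 48.6% of the 35 other replication genes. All of these are matches of letters, not measured binding. The 200 bases before the start follow, 5′ to 3′ on the gene's strand with the matching letters in capitals, for Mcm5 (ENSMUSG00000005410, chr8:75109309-75109508, plus strand), Mcm6 (ENSMUSG00000026355, chr1:128359706-128359905, minus strand), Cdc6 (ENSMUSG00000017499, chr11:98907951-98908150, plus strand) and Pola1 (ENSMUSG00000006678, chrX:93632156-93632355, minus strand).
Mcm5: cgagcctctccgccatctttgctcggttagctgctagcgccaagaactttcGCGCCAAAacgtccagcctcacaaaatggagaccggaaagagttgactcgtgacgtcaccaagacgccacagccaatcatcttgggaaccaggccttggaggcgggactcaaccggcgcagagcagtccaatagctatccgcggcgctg
Mcm6: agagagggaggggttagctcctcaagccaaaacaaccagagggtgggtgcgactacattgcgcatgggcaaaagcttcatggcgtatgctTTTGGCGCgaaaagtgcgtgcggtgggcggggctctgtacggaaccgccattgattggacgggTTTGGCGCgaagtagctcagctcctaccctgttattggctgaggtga
Cdc6: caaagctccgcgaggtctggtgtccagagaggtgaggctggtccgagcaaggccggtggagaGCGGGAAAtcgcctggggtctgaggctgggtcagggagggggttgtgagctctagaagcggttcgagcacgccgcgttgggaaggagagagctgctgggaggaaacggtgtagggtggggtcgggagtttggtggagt
Pola1: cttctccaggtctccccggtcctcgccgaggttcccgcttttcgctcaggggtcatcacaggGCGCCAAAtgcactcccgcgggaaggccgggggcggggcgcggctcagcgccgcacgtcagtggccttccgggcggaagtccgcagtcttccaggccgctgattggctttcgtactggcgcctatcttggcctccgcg

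In HSC, the replication genes stood high at E14 and E16, were lower at E18 and P0, higher again at P7, lower at P14 and in between in the adult. The mean log2 level of the 34 genes was 5.75 ± 0.03 (SD, n = 3) at E14, 5.62 ± 0.04 (n = 4) at E16, 5.03 ± 0.19 (n = 3) at E18 and 4.97 ± 0.06 (n = 4) at P0. It was 5.35 ± 0.15 at P7, 4.91 ± 0.16 at P14 and 5.13 ± 0.24 in the adult (n = 4 each). By group means, 27 members were highest at E14, 5 at E16 and 2 (Rfc2 and Chaf1b) in the adult, while 17 were lowest at P14, 9 at P0, 5 at E18 and 3 in the adult. HPC levels stayed between 5.73 and 5.77 from E16 to P14 and were 5.42 ± 0.10 (n = 4) in the adult.

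**Figure D1:**
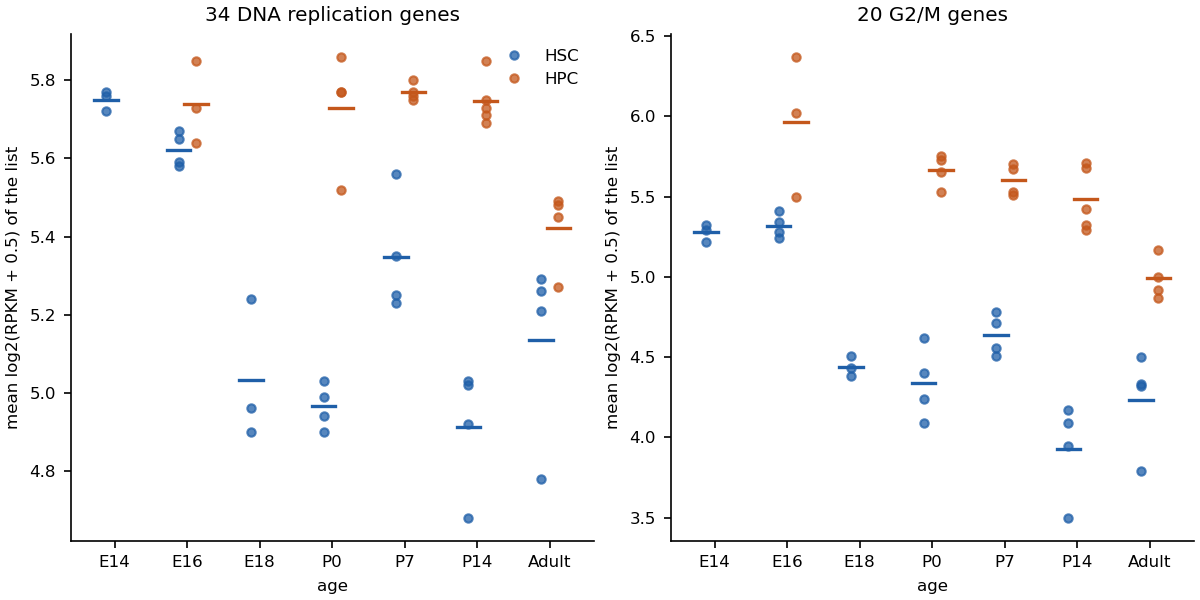
Mean log2(RPKM + 0.5) of the 34 replication genes (left) and of 20 G2/M genes (right) in each library, by age on the x axis, with HSC in blue, HPC in orange and bars at the group means. HSC means fall from 5.75 at E14 to 4.97 at P0, stand at 5.35 at P7 and 4.91 at P14, and lie below the HPC means at the 5 ages that both cell types have.

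**Figure D2:**
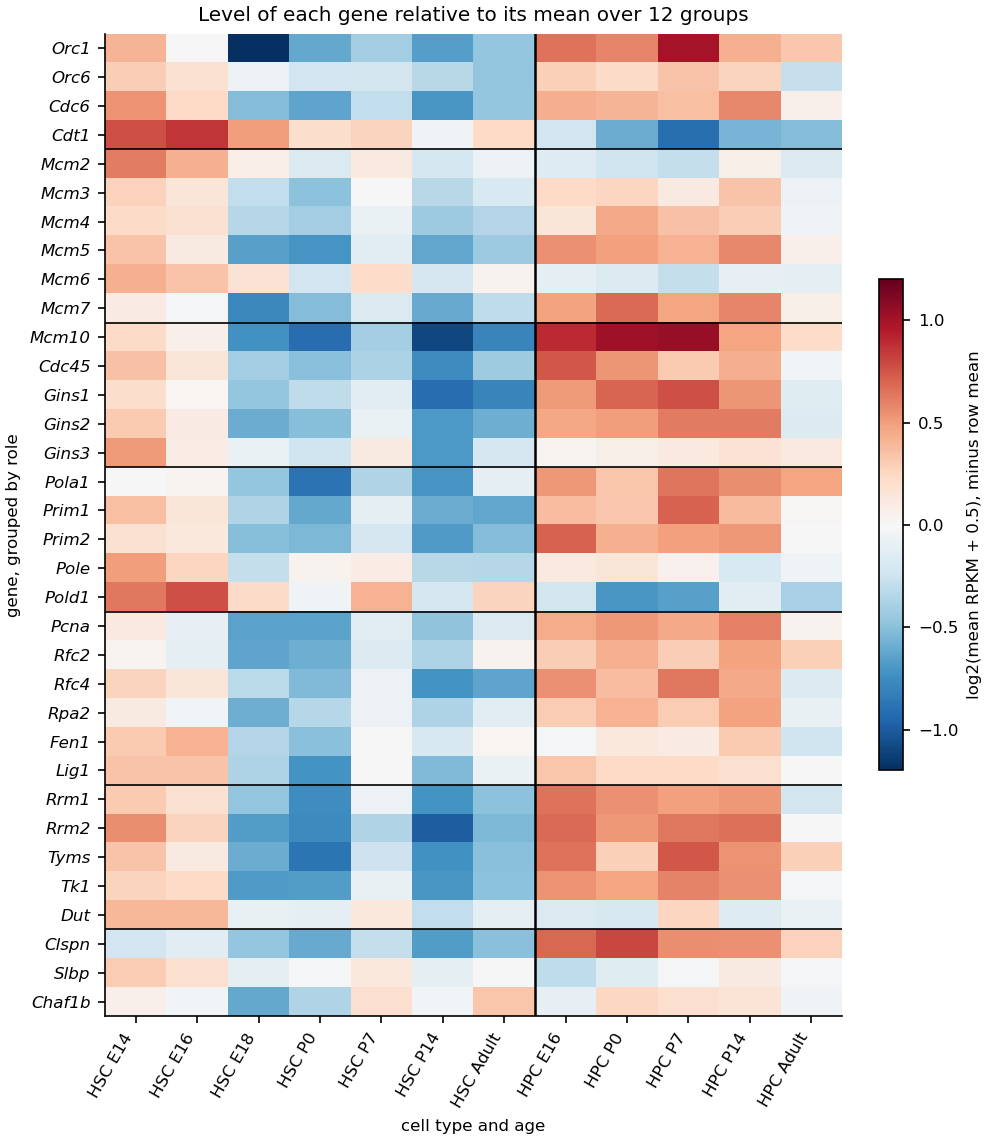
Each row is a replication gene and each column a cell type and age, with color for log2(mean RPKM + 0.5) minus the row's mean over the 12 groups, and black lines between roles. Cdt1 is higher in all 7 HSC columns than in all 5 HPC columns, and Clspn is lower in all 7.

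Between E14 and E16 no replication gene was called. In limma 0 of 34 passed, against 0.0527% of all 13275 genes. At an unadjusted p under 0.05 the count was also 0, and edgeR on the recovered reads called 0. All E14 libraries of Rrm2, at 194, 173 and 183 RPKM, still stood above its E16 libraries, at 145, 152, 148 and 153 RPKM. Rrm2 makes the small subunit of ribonucleotide reductase, whose level follows S phase.

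From E16 to E18, within a shared title code, 17 of 34 members fell and 0 rose, where 3.33% of all genes tested were called lower. All 34 estimates were below 0, the median was -0.56 beside -0.02 over all genes, and estimates ran from -1.42 (Orc1) to -0.18 (Mcm6). The clamp, loader and lagging strand genes fell in full, 6 of 6, as did 4 of the 5 genes of deoxynucleotide supply. In the other roles 2 of 4 licensing genes, 2 of 6 MCM genes, 1 of 5 helicase activation genes, 1 of 5 polymerase and primase genes and 1 of 3 checkpoint and histone genes fell.

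Among the licensing genes, Orc1, the origin complex subunit whose level varies through the cycle, was at 5.73, 5.95, 5.79 and 4.56 RPKM at E16 and 3.80, 0.770 and 1.54 RPKM at E18. Its E18 libraries were all below its E16 libraries, with replicate 1 nearest to E16 (log2 fold change -1.42, SE 0.36, limma adjusted p = 0.0203). Cdc6, which loads the helicase, was at 26.9, 29.7, 36.1 and 35.0 RPKM and then 18.3, 14.3 and 23.4 RPKM. No library of Cdc6 overlapped between these ages (log2 fold change -0.77, SE 0.20, limma adjusted p = 0.0223). Orc6 (-0.26) and Cdt1 (-0.36) were not called.

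Of the MCM helicase, Mcm5 was at 214, 204, 239 and 232 RPKM at E16 and 133, 114 and 147 RPKM at E18, every E18 library being lower (log2 fold change -0.76, SE 0.15, limma adjusted p = 0.00222). Mcm7 was at 95.7, 96.3, 111 and 115 RPKM and then 53.4, 57.1 and 73.0 RPKM. Both ages kept apart for Mcm7 as well (log2 fold change -0.77, SE 0.13, limma adjusted p = 0.000581). Mcm2 differed less, at 103, 96.5, 102 and 113 RPKM and then 82.7, 81.5 and 80.2 RPKM, and was not called (log2 fold change -0.34, SE 0.16, limma adjusted p = 0.245). Cdc45, which joins the helicase as it fires, was at 37.2, 42.5, 54.2 and 50.8 RPKM at E16 and 27.2, 32.8 and 33.2 RPKM at E18. Its E18 libraries were the lower without a call (log2 fold change -0.56, SE 0.20, limma adjusted p = 0.112). Gins2, a subunit of GINS, did fall (log2 fold change -0.69, SE 0.19, limma adjusted p = 0.0276).

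Pola1, the catalytic subunit of the polymerase that starts each strand, was at 11.2, 11.3, 9.47 and 11.3 RPKM at E16 and 7.22, 7.56 and 7.89 RPKM at E18. Its ages did not overlap, yet it was not called (log2 fold change -0.49, SE 0.18, limma adjusted p = 0.104), and among its relatives only the primase subunit Prim2 fell (log2 fold change -0.66, SE 0.18, limma adjusted p = 0.0267). The clamp gene Pcna was at 51.8, 57.4, 61.2 and 58.3 RPKM and then 35.4, 31.7 and 49.4 RPKM. Pcna fell (log2 fold change -0.58, SE 0.16, limma adjusted p = 0.0322), E18 replicate 3 lying closest to E16. Rpa2, which coats single-stranded DNA, was at 93.2, 98.6, 104 and 99.4 RPKM and then 64.9, 67.8 and 69.6 RPKM. Rpa2 libraries of the 2 ages did not overlap (log2 fold change -0.55, SE 0.09, limma adjusted p = 0.000581). The ligase Lig1, which seals lagging strand fragments, went from 75.6, 83.5, 85.9 and 89.0 RPKM to 41.9, 49.2 and 60.9 RPKM, all E18 libraries being lower (log2 fold change -0.73, SE 0.14, limma adjusted p = 0.00163).

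The reductase subunit Rrm2 had the smallest adjusted p. It was at 145, 152, 148 and 153 RPKM at E16 and 63.7, 72.1 and 97.8 RPKM at E18, far apart in every library (log2 fold change -0.96, SE 0.17, limma adjusted p = 0.000572). Tyms, which makes thymidylate, was at 49.3, 49.3, 54.5 and 59.4 RPKM and then 31.6, 26.9 and 38.6 RPKM. Here too each E18 library was below each E16 library (log2 fold change -0.72, SE 0.14, limma adjusted p = 0.00222). Slbp, which binds histone messages, was at 38.8, 43.5, 48.1 and 51.6 RPKM and 35.9, 35.3 and 38.6 RPKM, and was not called (log2 fold change -0.30, SE 0.13, limma adjusted p = 0.189). Chaf1b, a subunit of the histone chaperone CAF-1, fell (log2 fold change -0.60, SE 0.13, limma adjusted p = 0.00484).

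Lists of other genes were read over the same step. Of 42 other replication genes 7 fell and 0 rose from E16 to E18, led by the clamp loader subunit Chtf18 (-0.97 ± 0.20 SE) and Uhrf1 (-0.69 ± 0.17 SE), with a median of -0.43. Of 20 G2/M genes 16 fell, with a median of -0.89, among them Ube2c (-1.11 ± 0.17 SE) and Birc5 (-1.04 ± 0.16 SE), which act in mitosis. Of 17 E2F factors and S phase cyclins Rbl2, a pocket protein of resting cells, rose (0.75 ± 0.16 SE) and E2f8 fell (-0.97 ± 0.29 SE). Of 5 CDK inhibitor genes limma called 0, with 1 at an unadjusted p under 0.05. Progenitor and myeloid markers moved too: 3 of 10 fell, their summed RPKM was 489 to 715 at E16 and 356 to 390 at E18, and Ctsg was at 0 in all E18 libraries. Erythroid markers fell for 3 of 10 tested, with sums of 2036 to 2228 and 1993 to 2054 RPKM and none at 0 in every library of an age. Their part in the result was not tested. With a library left out, 9 to 20 members were called, 9 without E18 replicate 2 and 11 without E18 replicate 1 or without E16 replicate 3.

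No replication gene was called from E18 to P0 (limma, 0 of 34), where 4.67% of all genes were called. The count at an unadjusted p under 0.05 was 6, and edgeR called 0. Progenitor and myeloid markers rose for 4 of 10 over this step. By P7, 10 members had risen from P0 and 0 had fallen, where 3.27% of all genes were called higher. All 34 estimates lay above 0, with a median of 0.42 beside -0.01 over all genes. The called genes were Mcm3, Mcm5 and Mcm6 of the helicase, Pcna, Rfc2, Rfc4 and Lig1 at the clamp and lagging strand, Rrm1 and Tyms of nucleotide supply, and Chaf1b. No licensing, helicase activation or polymerase gene was called. Of the 17 members, among 34, that fell from E16 to E18 and the 10 that rose here, 8 were shared (47.1% and 80.0% of the lists). A list of 17 among 34 shares many genes with any list of 10, so this is no measure of reversal gene by gene. The libraries differ, but all HSC ages shared an estimate of spread for each gene, so the lists are not independent. P0 and P7 HSC have different title codes, so age and code cannot be told apart for this rise.

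Lig1 rose most clearly, from 38.0, 48.7, 33.8 and 38.1 RPKM at P0 to 79.0, 70.2, 53.5 and 59.96 RPKM at P7. No Lig1 library overlapped (log2 fold change 0.72, SE 0.13, limma adjusted p = 0.00113). Tyms was at 27.8, 23.1, 23.9 and 31.8 RPKM and then 50.4, 41.0, 37.2 and 36.5 RPKM, again without overlap (log2 fold change 0.62, SE 0.13, limma adjusted p = 0.00455). Chaf1b was at 26.4, 23.2, 27.3 and 28 RPKM and 42.0, 39.3, 37.2 and 36.5 RPKM. All its P7 libraries were the higher (log2 fold change 0.56, SE 0.12, limma adjusted p = 0.00545). Rfc4, a subunit of the clamp loader, was at 81.8, 83.9, 97.0 and 115 RPKM and 151, 126, 115 and 127 RPKM. Its highest P0 library, at 114.8 RPKM, was just under its lowest P7 library, at 115.4 RPKM (log2 fold change 0.47, SE 0.10, limma adjusted p = 0.00635). Mcm5, at 128, 129, 117 and 131 RPKM and 229, 206, 167 and 154 RPKM, rose (log2 fold change 0.56, SE 0.14, limma adjusted p = 0.015).

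The other genes followed throughout had larger adjusted p-values at P7. Pcna reached 73.9, 50.7, 48.6 and 48.4 RPKM from 46.4, 33.1, 34.7 and 41.0 RPKM and was just called (log2 fold change 0.50, SE 0.15, limma adjusted p = 0.0461), with P7 replicate 1 well above the other 3. Rrm2 was at 77.2, 76.7, 63.5 and 73.6 RPKM and then 118, 90.0, 93.8 and 84.3 RPKM. Its libraries did not overlap, without a call (log2 fold change 0.40, SE 0.15, limma adjusted p = 0.132). Mcm2, at 47.6, 79.3, 69.5 and 76.4 RPKM and 89.9, 91.5, 76.4 and 75.5 RPKM, overlapped (log2 fold change 0.31, SE 0.15, limma adjusted p = 0.255), as did Cdc45, at 23.4, 23.8, 34.6 and 35.3 RPKM and 41.6, 35.4, 23.6 and 26.6 RPKM (log2 fold change 0.11, SE 0.19, limma adjusted p = 0.803). Cdc6 was at 20.5, 13.5, 16.8 and 18.01 RPKM and 22.6, 24.1, 19.2 and 21.5 RPKM, also overlapping (log2 fold change 0.35, SE 0.19, limma adjusted p = 0.304). Pola1 was at 6.16, 5.48, 5.98 and 4.33 RPKM at P0 and 9.82, 7.48, 8.58 and 6.58 RPKM at P7. These did not overlap, and Pola1 was not called (log2 fold change 0.52, SE 0.16, limma adjusted p = 0.0562). Slbp was at 41.1, 40.5, 35.8 and 39.9 RPKM and 49.9, 42.4, 40.6 and 40.3 RPKM, with overlapping libraries (log2 fold change 0.13, SE 0.12, limma adjusted p = 0.588).

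Only 2 of 20 G2/M genes rose from P0 to P7, Top2a (0.61 ± 0.16 SE) and Mki67 (1.02 ± 0.27 SE), with a median of 0.28. Among other replication genes 7 of 42 rose and 0 fell, among them Dnmt1, which copies DNA methylation (0.78 ± 0.17 SE). Cdkn2c, an inhibitor of the CDKs that open S phase, rose as well (1.05 ± 0.27 SE). Of the progenitor and myeloid markers 3 of 10 fell, with sums of 505 to 945 RPKM at P0 and 387 to 483 at P7 and none at 0 in every library of an age, and the part of this in the rise was not tested. Leaving out a library gave 5 to 11 called members, with 5 without P7 replicate 1 or without P0 replicate 3, and 6 without P7 replicate 2.

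From P7 to P14, which share a title code, 5 of 34 members fell and 0 rose, where 1.16% of all genes were called lower. Without the filter on low values 2 fell, Rfc4 and Gins1. Every estimate was below 0, with a median of -0.41 beside 0.00 over all genes. Rfc4 was at 151, 126, 115 and 127 RPKM at P7 and 86.6, 85.4, 84.3 and 75.03 RPKM at P14, without overlap (log2 fold change -0.64, SE 0.10, limma adjusted p = 0.00118). Gins1, of the complex that activates the helicase, was at 31.2, 24.8, 29.1 and 42.5 RPKM and then 20.8, 19.9, 11.0 and 21.7 RPKM. All of its P14 libraries were the lower (log2 fold change -0.80, SE 0.18, limma adjusted p = 0.0143). Rrm1, the large reductase subunit, was at 203, 185, 169 and 149 RPKM and 111, 124, 95.4 and 122 RPKM, with a clear gap (log2 fold change -0.64, SE 0.15, limma adjusted p = 0.0215). Rrm2, at 71.5, 66.0, 46.5 and 65.4 RPKM at P14, fell below all its P7 libraries (log2 fold change -0.63, SE 0.15, limma adjusted p = 0.0276), and Lig1, at 45.4, 50.4, 36.8 and 49.0 RPKM, fell as well (log2 fold change -0.52, SE 0.13, limma adjusted p = 0.032). Of the G2/M genes 15 of 20 fell, with a median of -0.78. Of the other replication genes 6 of 42 fell, among them Nasp (-0.69 ± 0.14 SE) and the licensing inhibitor Gmnn (-0.69 ± 0.15 SE), and Ccna2, the S phase cyclin, fell (-0.96 ± 0.19 SE). The member count was 1 without P14 replicate 3, 2 without P7 replicate 1 or 2, 3 without P14 replicate 1, and 6 at most. Summed progenitor and myeloid markers were at 387 to 483 RPKM at P7 and 312 to 378 at P14, and erythroid markers at 2460 to 2697 and 2852 to 3699 RPKM, none at 0 in every library of an age, and their part was not tested.

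The adult HSC stood a little above P14 in few genes. From P14 to Adult 3 members rose and 0 fell, where 2.32% of all genes were called higher, and the median was 0.21. Rfc2, another clamp loader subunit, was at 216, 231, 180.5 and 206 RPKM at P14 and 252, 317, 265 and 274 RPKM in the adult, without overlap (log2 fold change 0.41, SE 0.11, limma adjusted p = 0.0217). Lig1 reached 58.2, 60.5, 66.4 and 63.4 RPKM, above all P14 libraries (log2 fold change 0.46, SE 0.13, limma adjusted p = 0.0347). Pola1 was at 5.38, 6.61, 7.18 and 5.98 RPKM and then 7.20, 8.64, 11.8 and 11.2 RPKM, where each adult library was the higher (log2 fold change 0.57, SE 0.16, limma adjusted p = 0.0373). The title code differs here too and cannot be told apart from age. Adult replicate 1 stood low for most members, with a level of 4.78 against 5.21 to 5.29 in the other 3 adult libraries. Without that library 6 members rose, and without 6 of the other 7 libraries only 1 did.

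Between P0 and Adult, which share a code, 6 members rose (10.6% of all genes did) and 1 fell (10.4% of all genes). Rfc2, at 138, 204, 166 and 205 RPKM at P0, was higher in every adult library (log2 fold change 0.65, SE 0.11, limma adjusted p = 7.26e-05). Chaf1b was at 39.7, 45.3, 47.4 and 38.7 RPKM in the adult, well above P0 (log2 fold change 0.69, SE 0.12, limma adjusted p = 0.000107). Lig1 (log2 fold change 0.65, SE 0.13, limma adjusted p = 0.000517), Pola1 (log2 fold change 0.75, SE 0.16, limma adjusted p = 0.00126), Pcna (log2 fold change 0.49, SE 0.15, limma adjusted p = 0.0193) and Tyms (log2 fold change 0.38, SE 0.13, limma adjusted p = 0.0398) were the others that rose. Adult libraries of Pcna were at 54.0, 53.2, 58.3 and 51.1 RPKM and those of Tyms at 29.6, 36.2, 38.9 and 33.9 RPKM, with Tyms replicate 1 inside the P0 range. Gins1 went the other way, from 27.1, 26.1, 26.5 and 33.6 RPKM at P0 to 18.4, 20.5, 21.2 and 19.9 RPKM, all adult libraries being lower (log2 fold change -0.48, SE 0.18, limma adjusted p = 0.0495). The Gins1 call was lost on leaving out any 1 of the 8 libraries, with a pseudocount of 0.1 and without the filter on low values. Without adult replicate 1, 13 members rose. The count was 4 without P0 replicate 2 or without adult replicate 3. Progenitor and myeloid markers fell for 6 of 10 between these ages, from sums of 505 to 945 RPKM to 332 to 394 RPKM, and their part was not tested.

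Set against E16, adult HSC had 22 members lower and 1 higher, where 12.5% of all genes were called lower and 12.2% higher. The codes differ between these ages. The 5 genes of nucleotide supply all fell, as did 4 of 5 helicase activation and 4 of 5 polymerase genes, but 2 of 6 at the clamp and lagging strand. Rfc4 was at 146, 164, 143 and 153 RPKM at E16 and 80.9, 96.8, 89.3 and 85.7 RPKM in the adult, far apart (log2 fold change -0.78, SE 0.10, limma adjusted p = 1.7e-06). Rrm2, at 56.4, 88.5, 101 and 95.6 RPKM in the adult, was below every E16 library (log2 fold change -0.84, SE 0.15, limma adjusted p = 0.000149). Orc6, an origin complex subunit, was at 129.9, 106, 99.7 and 109 RPKM and then 56.9, 81.5, 73.7 and 69.3 RPKM, again without overlap (log2 fold change -0.66, SE 0.13, limma adjusted p = 0.000301). Rrm1 was at 187, 221, 217 and 219 RPKM and 78.2, 141, 161 and 148 RPKM, all adult libraries being lower (log2 fold change -0.72, SE 0.15, limma adjusted p = 0.00065). Chaf1b alone was higher, at 32.1, 33.2, 31.7 and 35.5 RPKM at E16, under every adult library (log2 fold change 0.36, SE 0.12, limma adjusted p = 0.0278). That call was lost without E16 replicate 1, 2 or 3 or without adult replicate 2 or 3.

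Adult libraries of the other genes read throughout were as follows. Mcm5 was at 105, 158, 174 and 176 RPKM, below all its E16 libraries (log2 fold change -0.56, SE 0.14, limma adjusted p = 0.00355), and Mcm2 at 48.4, 72.5, 79.1 and 93.8 RPKM (log2 fold change -0.53, SE 0.15, limma adjusted p = 0.0113). Cdc6 was at 11.1, 20.5, 20.5 and 25.3 RPKM (log2 fold change -0.76, SE 0.19, limma adjusted p = 0.00346) and Cdc45 at 23.6, 34.1, 34.6 and 31.4 RPKM (log2 fold change -0.57, SE 0.19, limma adjusted p = 0.0277). In all 4 the first adult library was the lowest. Slbp, at 31.0, 44.8, 41.0 and 41.8 RPKM, was not called (log2 fold change -0.20, SE 0.12, limma adjusted p = 0.25). In the neighbouring lists 19 of 42 other replication genes and 18 of 20 G2/M genes fell, with medians of -0.46 and -1.02. Cdkn2c (2.38 ± 0.27 SE) and Rbl2 (1.23 ± 0.15 SE) rose, and the kinase Cdk2 (-0.62 ± 0.11 SE) and cyclin Ccne2 (-0.82 ± 0.19 SE) fell. Markers of progenitors and myeloid cells (5 of 10 lower, sums of 332 to 394 RPKM in the adult, Ctsg at 0) and of macrophages (6 of 8 higher, sums of 41.6 to 65.5 and 54.9 to 104 RPKM, none at 0 in every library of an age) also differed, and their part was not tested.

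**Figure D3:**
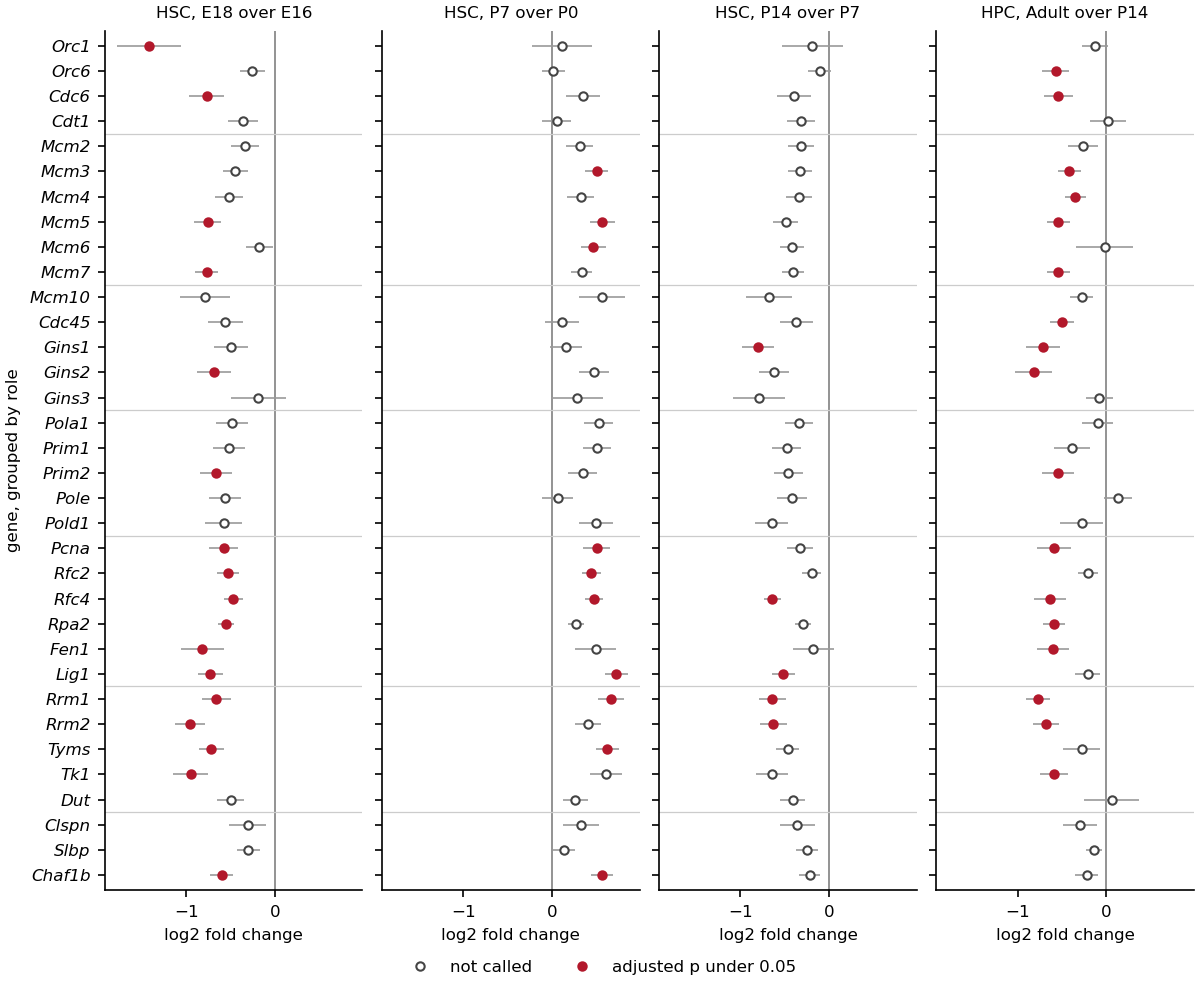
Log2 fold change with its standard error for each of the 34 genes in 4 comparisons of consecutive ages, with filled points for genes called at an adjusted p under 0.05 (limma for HSC, edgeR for HPC) and lines between roles. Estimates for E18 over E16 and P14 over P7 in HSC are all below 0, those for P7 over P0 all above 0, and in HPC 31 of 34 are below 0 for Adult over P14.

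In HPC the mean level of these genes moved little from E16 to P14 and was lower in the adult. In edgeR no member was called for P0 against E16 (2 at an unadjusted p under 0.05, 0 by DESeq2, 3.27% of all genes called) or for P7 against P0 (1 at an unadjusted p, 0 by DESeq2, 1.5% of all genes called). From P7 to P14, 2 of 34 members fell and 0 rose, a share close to the 5.06% of all genes that were called lower. Mcm10, which helps start the helicase, was at 22.8, 19.3, 20.9 and 20.7 RPKM at P7 and 13.3, 12.4, 14.2, 16.3 and 13.3 RPKM at P14, without overlap (log2 fold change -0.61, SE 0.13, edgeR adjusted p = 0.00663). Orc1 was at 13.4, 10.5, 10.2 and 11.99 RPKM and then 8.75, 9.22, 6.53, 5.85 and 7.45 RPKM, also apart (log2 fold change -0.62, SE 0.15, edgeR adjusted p = 0.0145). Without P7 replicate 1 only 1 was called. Over the same ages 7 of 10 progenitor and myeloid markers rose, with a median of 2.26, and their part was not tested.

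From P14 to Adult, 17 members fell in HPC and 0 rose, where 14% of all genes were called lower and the median was -0.37 beside 0.04 over all genes. They were 2 of 4 licensing, 4 of 6 MCM, 3 of 5 helicase activation, 1 of 5 polymerase, 4 of 6 clamp and lagging strand and 3 of 5 nucleotide genes. Rrm1 was at 263, 290.0, 270.2, 267 and 246 RPKM at P14 and 165, 161, 178 and 132 RPKM in the adult, with a wide gap (log2 fold change -0.77, SE 0.14, edgeR adjusted p = 0.000441). Rrm2 was at 202, 248, 203, 172 and 158 RPKM and 139, 108, 138 and 114 RPKM, the highest adult library staying below P14 (log2 fold change -0.68, SE 0.15, edgeR adjusted p = 0.00295). Rpa2 was at 156, 156, 128, 135 and 129.7 RPKM and 90.6, 93.4, 106 and 89.9 RPKM. Its groups did not overlap (log2 fold change -0.59, SE 0.12, edgeR adjusted p = 0.00148). Mcm7 was at 173, 181, 139.7, 156 and 142 RPKM and 117, 116, 109.7 and 97.8 RPKM, again lower in every adult library (log2 fold change -0.54, SE 0.13, edgeR adjusted p = 0.00514). With each library's correlation with exon length as a covariate, a setting added after the values were seen, 11 were called. Progenitor and myeloid markers fell over the same step for 8 of 10, with sums of 1898 to 10564 RPKM at P14 and 1226 to 1576 RPKM in the adult and none at 0 in every library of an age, and their part was not tested.

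Mcm5 in HPC was at 324, 354, 285, 304 and 280.3 RPKM at P14 and 216, 226, 236 and 185 RPKM in the adult, without overlap (log2 fold change -0.54, SE 0.13, edgeR adjusted p = 0.00571). Pcna was at 124, 121, 68.7, 74.9 and 76.8 RPKM and 66.0, 62.2, 63.6 and 59.5 RPKM, where the first pair of P14 libraries stood far above the rest (log2 fold change -0.59, SE 0.19, edgeR adjusted p = 0.0266). The correlation with exon length was -0.31 and -0.35 in that pair, 0.24, 0.34 and 0.01 in the other P14 libraries and 0.10 to 0.25 in the adult. Tyms had the same pair high, at 103, 96.7, 52.3, 46.3 and 59.8 RPKM, overlapped the adult at 71.7, 52.1, 60.9 and 55.3 RPKM, and was not called (log2 fold change -0.28, SE 0.21, edgeR adjusted p = 0.333). Mcm6 and Dut, a dUTPase, varied most within a group. At P14 Mcm6 was at 33.4, 105, 162, 179.6 and 108 RPKM and Dut at 17.1, 59.0, 68.6, 64.9 and 52.8 RPKM, with replicate 1 lowest in both. At E16 replicate 2 was lowest in both, with Mcm6 at 155, 62.3 and 134 RPKM and Dut at 66.6, 19.4 and 68.9 RPKM. The correlation with exon length in these E16 libraries was 0.22, 0.04 and -0.08. Neither gene was called in any HPC age comparison. Slbp (log2 fold change -0.14, SE 0.09, edgeR adjusted p = 0.248), Pola1 (log2 fold change -0.10, SE 0.17, edgeR adjusted p = 0.678) and Mcm2 (log2 fold change -0.26, SE 0.17, edgeR adjusted p = 0.254) were not called.

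Against E16, 13 members were lower in adult HPC and 0 higher, where 12% of all genes were called lower. Rrm1 (log2 fold change -0.91, SE 0.15, edgeR adjusted p = 0.000141) and Rrm2 (log2 fold change -0.71, SE 0.17, edgeR adjusted p = 0.00394) were among them. Cdc45 was at 68.2, 83.2 and 58.4 RPKM at E16 and 40.6, 39.6, 48.4 and 33.6 RPKM in the adult, all adult libraries being lower (log2 fold change -0.82, SE 0.15, edgeR adjusted p = 0.000394). Mcm10 was at 18.7, 19.3 and 18.3 RPKM and 14.6, 8.75, 11.5 and 11.5 RPKM, likewise apart (log2 fold change -0.73, SE 0.15, edgeR adjusted p = 0.00109). Only these 4 were called without E16 replicate 2, a library with Pcna at 119 RPKM against 61.2 and 70.3 RPKM in the other 2. In the lists around them 17 of 20 G2/M genes and 10 of 42 other replication genes fell, with medians of -1.09 and -0.29. Macrophage markers rose for 7 of 8, with sums of 10.5 to 29.6 RPKM at E16, where C1qa was at 0, and 40.2 to 94.1 RPKM in the adult, and their part was not tested. Whether the change from E16 to Adult differed between HSC and HPC was tested by an interaction in limma, in which 0 of 34 members passed (2 at an unadjusted p under 0.05, 0 by edgeR, 4.15% of all genes called). Without HSC E16 replicate 1, or without adult HSC replicate 2, 1 passed.

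Set side by side at the same age, most replication genes were lower in HSC than in HPC, and a few were higher. The counts called lower and higher were 10 and 4 at E16 (10.5% and 12.7% of all genes), 26 and 2 at P0 (18.3% and 20.4%), 22 and 2 at P7 (21.3% and 20%), 26 and 1 at P14 (19.5% and 17.7%) and 14 and 3 in the adult (15.4% and 13.1%). The medians over the 34 were -0.31, -0.96, -0.57, -0.99 and -0.37 in that order, beside -0.06 to 0.00 over all genes. Mcm5, Mcm7, Mcm10, Prim2, Tyms and Clspn were lower at all 5 ages, and Cdt1 was higher at all 5. Cell type and title code coincide throughout and cannot be told apart.

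At P0, Rfc2 was at 138, 204, 166 and 205 RPKM in HSC and 399, 342, 308 and 393 RPKM in HPC, with a wide gap (log2 fold change -1.02, SE 0.10, limma adjusted p = 1.37e-10). Mcm10 was at 7.01, 4.63, 5.63 and 2.75 RPKM and 18.4, 24.7, 21.4 and 17.7 RPKM, the largest difference of any member (log2 fold change -1.99, SE 0.22, limma adjusted p = 6.76e-10). Mcm7 was at 70.9, 71.4, 72.0 and 77.7 RPKM and 168, 202, 135 and 171 RPKM, every HSC library being lower (log2 fold change -1.19, SE 0.13, limma adjusted p = 4.08e-10). Rrm1 was at 125, 105, 110.5 and 102 RPKM and 293, 300.1, 198 and 298 RPKM, again without overlap (log2 fold change -1.28, SE 0.15, limma adjusted p = 3.24e-09). Of the genes followed in all groups, Cdc6 (log2 fold change -1.06, SE 0.18, limma adjusted p = 7.06e-06), Cdc45 (log2 fold change -1.05, SE 0.17, limma adjusted p = 3.39e-06) and Pola1 (log2 fold change -1.21, SE 0.17, limma adjusted p = 1.65e-07) were lower in HSC, while Mcm2 (log2 fold change 0.08, SE 0.17, limma adjusted p = 0.753) and Slbp (log2 fold change 0.13, SE 0.11, limma adjusted p = 0.339) were not called.

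At P14, Rrm2 was at 71.5, 66.0, 46.5 and 65.4 RPKM in HSC and 202, 248, 203, 172 and 158 RPKM in HPC (log2 fold change -1.65, SE 0.15, limma adjusted p = 2.24e-12). Mcm5 was at 138, 150.2, 107 and 142 RPKM and 324, 354, 285, 304 and 280.3 RPKM (log2 fold change -1.21, SE 0.13, limma adjusted p = 4.98e-10). Mcm7, at 61.5 to 77.8 RPKM in HSC and 139.7 to 181 RPKM in HPC, and Rpa2, at 67.0 to 88.0 and 128 to 156 RPKM, had log2 differences of -1.19 ± 0.12 SE and -0.85 ± 0.09 SE. None of these 4 genes overlapped between the cell types. At P7, Mcm10 (log2 fold change -1.47, SE 0.22, limma adjusted p = 5.83e-07), Rrm2 (log2 fold change -1.00, SE 0.15, limma adjusted p = 1.4e-06), Pola1 (log2 fold change -1.01, SE 0.17, limma adjusted p = 5.04e-06) and Tyms (log2 fold change -0.99, SE 0.17, limma adjusted p = 1.36e-05) led the lower genes.

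In the adult the lower genes were led by Mcm10, at 2.76, 5.33, 6.64 and 7.20 RPKM in HSC and 14.6, 8.75, 11.5 and 11.5 RPKM in HPC, all HSC libraries being lower (log2 fold change -1.07, SE 0.22, limma adjusted p = 0.000165). Tyms (log2 fold change -0.78, SE 0.17, limma adjusted p = 0.000612), Mcm5 (log2 fold change -0.51, SE 0.14, limma adjusted p = 0.00392) and Clspn, which signals stalled forks to the checkpoint (log2 fold change -0.79, SE 0.19, limma adjusted p = 0.00159), followed. Without adult HSC replicate 1, 8 were lower and 3 higher. At E16 the lower genes were led by Mcm10 (log2 fold change -0.86, SE 0.23, limma adjusted p = 0.0057), Clspn, with overlapping libraries (log2 fold change -0.75, SE 0.21, limma adjusted p = 0.00701), Rfc2 (log2 fold change -0.40, SE 0.11, limma adjusted p = 0.00764) and Mcm7 (log2 fold change -0.49, SE 0.14, limma adjusted p = 0.00764). Without HPC E16 replicate 2, 2 were lower at E16 (Mcm10 and Rfc2) and 3 higher, and without HSC E16 replicate 1, 5 were lower and 4 higher.

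Cdt1, which loads the helicase with Cdc6 and is destroyed in S phase, ran against the rest. In HSC it was at 41.7, 31.3, 37.7 and 39.7 RPKM at E16 and 22.3, 19.96, 28.5 and 26.6 RPKM in the adult, and in HPC at 17.1, 18.2 and 17.2 RPKM and 13.9, 17.9, 13.7 and 11.2 RPKM. All HSC libraries were the higher at both ages (log2 fold change 1.08, SE 0.20, limma adjusted p = 6.03e-05 at E16, log2 fold change 0.76, SE 0.18, limma adjusted p = 0.00116 in the adult). At P0 (0.82 ± 0.18 SE), P7 (1.18 ± 0.18 SE) and P14 (0.54 ± 0.17 SE) the difference had the same sign and was called. Pold1, the catalytic subunit of polymerase delta, was at 47.6, 38.1, 41.1 and 39.0 RPKM in HSC and 29.8, 14.3 and 17.6 RPKM in HPC at E16. Pold1 was called higher in HSC at 4 ages (log2 fold change 1.06, SE 0.25, limma adjusted p = 0.0017 at E16) and not at P14 (log2 fold change -0.05, SE 0.22, limma adjusted p = 0.891). Slbp and Mcm2 were higher in HSC at E16 only (0.49 ± 0.11 SE and 0.58 ± 0.19 SE), and Chaf1b in the adult only (0.37 ± 0.12 SE). Whether these differences changed with age was tested for Adult against E16 alone, without a call.

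The wider lists moved with the members. At P0, 28 of 42 other replication genes and 18 of 20 G2/M genes were lower in HSC, with medians of -0.58 and -1.29, against 13 of 20 G2/M genes at E16. Nasp, a histone chaperone (-1.51 ± 0.12 SE), Wdhd1 (-1.56 ± 0.18 SE), Top2a (-1.89 ± 0.18 SE) and Mki67 (-2.93 ± 0.30 SE) were among these. Cdkn1c, an inhibitor known from resting HSC, was higher in HSC at P0 (1.92 ± 0.32 SE). E2f8 (-1.48 ± 0.23 SE) and Tfdp1 (-0.82 ± 0.14 SE), which act on E2F sites, were lower.

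**Figure D4:**
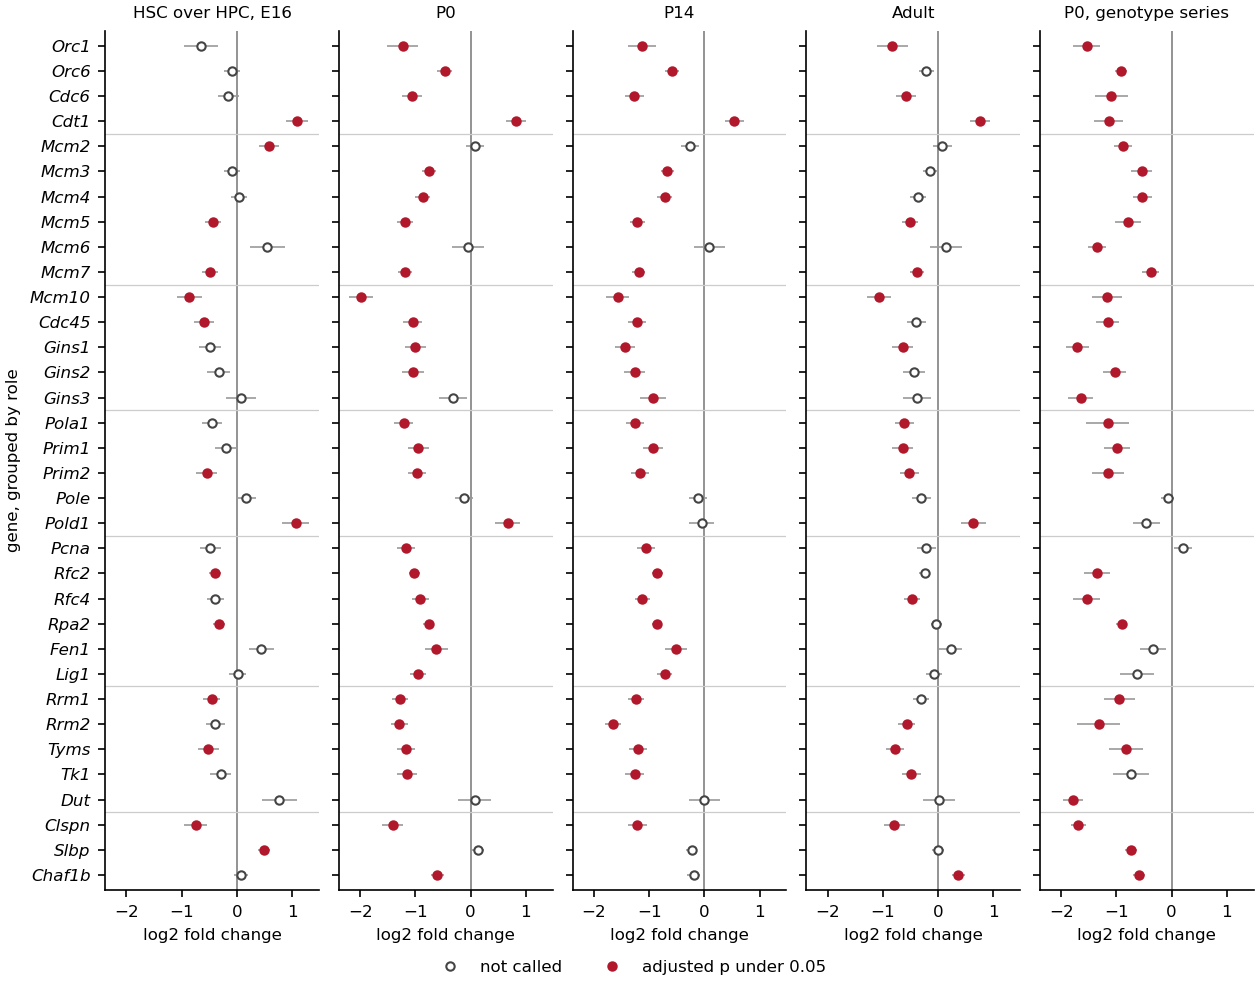
Log2 difference of HSC over HPC with its standard error for each of the 34 genes at 4 ages of the age series (limma) and at P0 in the wild type libraries of the genotype series (edgeR), with filled points for genes called at an adjusted p under 0.05. Most points lie left of 0, Cdt1 lies right of it at the 4 ages and Pold1 at E16, P0 and Adult, and Cdt1 lies left of it in the genotype series.

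The wild type P0 libraries of the genotype series compared the cell types at P0 in other libraries. There too cell type coincides with a title code, and with depth, at 37039400 to 46229474 reads in HSC and 12862362 to 14719608 in HPC, so these cannot be told apart. In edgeR 28 members were lower in HSC and 0 higher, where 26.3% of all genes were called lower, and the median was -0.97 beside 0.06 over all genes. Of these 28 and the 26 of the age series at P0, 22 were shared (78.6% and 84.6% of the lists). Lists of 26 and 28 among 34 members share most genes in any case, so this is no measure of agreement gene by gene. Clspn was at 1.68, 1.95, 1.81, 2.50 and 2.23 RPKM in HSC and 5.98, 5.93, 6.38 and 6.86 RPKM in HPC, far apart (log2 fold change -1.69, SE 0.14, edgeR adjusted p = 4.77e-07). Dut was at 18.7, 21.2, 19.99, 34.2 and 27.7 RPKM and 81.8, 73.0, 93.2 and 72.8 RPKM (log2 fold change -1.78, SE 0.18, edgeR adjusted p = 2.4e-06), although in the age series it was not called at P0 (log2 fold change 0.07, SE 0.29, limma adjusted p = 0.873). Rpa2 (log2 fold change -0.90, SE 0.10, edgeR adjusted p = 7.62e-06) and Gins1 (log2 fold change -1.71, SE 0.21, edgeR adjusted p = 1.56e-05) had no overlap either.

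Cdt1 reversed between the series. It was at 14.4, 12.4, 10.4, 18.2 and 10.4 RPKM in HSC and 20.8, 18.54, 24.4 and 47.2 RPKM in HPC of the genotype series, lower in every HSC library (log2 fold change -1.14, SE 0.26, edgeR adjusted p = 0.00205). In the age series at P0 it was at 20.4, 25.1, 27.0 and 22.8 RPKM in HSC and 15.5, 14.7, 9.72 and 13.8 RPKM in HPC, higher in every HSC library. The values of the 2 series were scaled separately, so only the differences within each are set beside each other. Pold1, called higher in HSC at P0 in the age series, had an estimate below 0 in the genotype series and was not called there. Pcna was not called in the genotype series (log2 fold change 0.21, SE 0.16, edgeR adjusted p = 0.275) and was lower in HSC in the age series (log2 fold change -1.17, SE 0.17, limma adjusted p = 5.16e-07).

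At P0 no replication gene was called between HSC labelled Ifnar -/- and wild type. In edgeR 0 of 34 passed (0 at an unadjusted p under 0.05, 0 by DESeq2), where 1.14% of all 16224 genes were called, and the median was -0.25. The mean log2 level of the 34 was 4.04, 4.15, 4.02, 5.0 and 4.68 in wild type replicates 1 to 5 and 4.05, 4.13, 4.33 and 4.29 in Ifnar -/- replicates 1 to 4. Wild type replicates 4 and 5 stood above all other libraries, and the other 3 lay within or just below the Ifnar -/- range. Rrm2 was at 14.9, 22.1, 16.1, 69.2 and 44.2 RPKM in wild type and 14.51, 19.3, 30.1 and 25.4 RPKM in Ifnar -/- libraries (log2 fold change -0.58, SE 0.40, edgeR adjusted p = 0.705). Mcm5 was at 69.2, 71.4, 70, 156 and 129 RPKM and 63.0, 72.7, 86.6 and 93.6 RPKM (log2 fold change -0.33, SE 0.24, edgeR adjusted p = 0.72). Tyms was at 9.81, 10.5, 10.2, 30.1 and 24.2 RPKM and 7.72, 9.68, 13.98 and 11.7 RPKM (log2 fold change -0.66, SE 0.33, edgeR adjusted p = 0.578). In each of these genes the same pair of wild type libraries was the highest.

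The G2/M level set the same pair apart, at 3.49, 3.67, 3.60, 4.52 and 4.84 in wild type. HSC markers did not, at 5.34, 5.26, 5.32, 5.24 and 5.32, nor did progenitor and myeloid markers, at 2.35, 2.30, 2.44, 2.17 and 2.32. Erythroid markers were lowest in the pair by a small margin, at 1.5, 1.61, 1.48, 1.43 and 1.35. The pair also differed in its correlation with exon length, at 0.04, 0.03, 0.20, -0.08 and -0.12 in replicates 1 to 5. TMM factors were 1.094, 1.124, 1.151, 1.006 and 1.016 in that order, and the part of these differences was not tested. Wild type replicates 4 and 5 were then left out, a setting chosen for their high member and G2/M levels after the values were seen. It called 0 members, with a median of 0.14 and 29 of 34 estimates above 0. Leaving out the highest wild type libraries raises these estimates in any case, so their sign is no result about the genotype. In the wild type cell type comparison, leaving out the same pair gave 32 members lower in HSC and a median of -1.47. That choice of libraries lowers the HSC levels in any case, so the larger difference is no further result. Macrophage markers were lower in Ifnar -/- HSC for 3 of 8, with sums of 47.4 to 91.4 RPKM in wild type and 73.4 to 107 RPKM in Ifnar -/- libraries and none at 0 in every library of a group, and the part of this was not tested.

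In HPC at P0, 5 members were lower in Ifnar -/- libraries and 0 higher, where 5.4% of all 12988 genes were called lower and the median was -0.10. DESeq2 called 8 (7 lower and 1 higher). The rank correlation, over genes, of a library's deviations from the mean with exon length was -0.30, -0.27, -0.34 and 0.23 in wild type and 0.13, 0.10, 0.14 and 0.25 in Ifnar -/- replicates 1 to 4. With that correlation as a covariate, a setting added after the values were seen, 2 members were called, Cdc6 and Rrm2. Most wild type libraries had a negative correlation and all Ifnar -/- libraries a positive one. The covariate therefore overlaps with genotype, and this count cannot tell them apart. Gins2 was at 30.1, 24.6, 28.4 and 28.6 RPKM in wild type and 19.5, 21.9, 18.7 and 20.2 RPKM in Ifnar -/- libraries, without overlap (log2 fold change -0.47, SE 0.11, edgeR adjusted p = 0.0138). Gins1 was at 40, 32.9, 49.1 and 38.3 RPKM and 22.2, 26.4, 25.6 and 30.7 RPKM. All of its Ifnar -/- libraries were the lower (log2 fold change -0.61, SE 0.15, edgeR adjusted p = 0.025). Rrm2 was at 81, 62.0, 80.8 and 96.3 RPKM and 39.98, 55.5, 50.2 and 61.1 RPKM, with a narrow gap (log2 fold change -0.62, SE 0.15, edgeR adjusted p = 0.0194). Tyms was at 31.7, 25.4, 31.4 and 27.5 RPKM and 19.2, 23.1, 21.8 and 23.4 RPKM, also apart (log2 fold change -0.40, SE 0.11, edgeR adjusted p = 0.0379). Rfc2, at 319, 295, 283 and 226 RPKM and 119, 153, 216 and 229 RPKM, overlapped in its last libraries (log2 fold change -0.64, SE 0.19, edgeR adjusted p = 0.0466).

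The remaining 29 members were not called in this comparison. Cdc6 was at 19.7, 19.6, 19.8 and 27.8 RPKM in wild type and 16.6, 15.02, 14.1 and 17.9 RPKM in Ifnar -/- libraries, which did not overlap (log2 fold change -0.44, SE 0.14, edgeR adjusted p = 0.0564). Mcm5 (log2 fold change -0.12, SE 0.11, edgeR adjusted p = 0.5), Mcm2 (log2 fold change -0.04, SE 0.11, edgeR adjusted p = 0.851), Pcna (log2 fold change -0.16, SE 0.11, edgeR adjusted p = 0.368) and Cdc45 (log2 fold change -0.04, SE 0.15, edgeR adjusted p = 0.908) had estimates close to 0. Cdt1 had the highest estimate (log2 fold change 0.75, SE 0.27, edgeR adjusted p = 0.0915), with 66.5, 40.7, 38.3 and 40.8 RPKM in Ifnar -/- libraries. Beside the members, edgeR called 0 of 20 G2/M genes (6 at an unadjusted p under 0.05), with a median of 0.19, and Ccna2 (0.82 ± 0.13 SE) and E2f7 (0.84 ± 0.17 SE) were higher. Erythroid markers were higher for 6 of 10 (sums of 1262 to 1432 RPKM in wild type and 1519 to 1709 in Ifnar -/-), and progenitor and myeloid markers were lower for 5 of 9 (sums of 1365 to 1616 and 656 to 858 RPKM). HSC markers were higher for 9 of 14 and lower for 1 (sums of 490 to 605 and 490 to 676 RPKM). No marker of these 3 lists was at 0 in every library of a group. The part of these markers in the result was not tested. The count was 0 without wild type replicate 1 or 3 and 2 without Ifnar -/- replicate 1, 2 or 3.

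At P14 the Flt3 and Ifnar genotypes gave few calls in edgeR, and their number changed with single libraries and with the tool. For Flt3 ITD/+ in Ifnar +/- HPC it also changed with replicate number as a block, and pairing by that number cannot be set aside at P14. With Flt3 ITD/+ against Flt3 +/+ in Ifnar +/- HPC, 1 member was higher and 0 lower, where 2.62% of all 17464 genes were called higher, and DESeq2 called 11 (10 higher and 1 lower). The 1 edgeR call, a share of the members close to that over all genes, was Orc1. It was at 6.91, 4.47, 3.56 and 5.14 RPKM in Flt3 +/+ and 7.81, 8.82, 8.36 and 8.03 RPKM in Flt3 ITD/+ libraries, which did not overlap (log2 fold change 0.80, SE 0.22, edgeR adjusted p = 0.0468). In Ifnar -/- HPC the same contrast called 0 of 34 (1 at an unadjusted p under 0.05, 0 by DESeq2, 0.962% of all genes called). Ifnar -/- against Ifnar +/- in Flt3 ITD/+ also called 0 (11 at an unadjusted p, 1 by DESeq2, 4.03% of all genes called).

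Ifnar -/- against Ifnar +/- in Flt3 +/+ HPC had 5 members lower and 0 higher, where 3.31% of all genes were called lower, and DESeq2 called 14 (12 lower and 2 higher). Gins1 was at 64.5, 32.4, 72.8 and 52.6 RPKM in Ifnar +/- and 31.2, 26.8, 33.5 and 29.5 RPKM in Ifnar -/- libraries (log2 fold change -0.82, SE 0.17, edgeR adjusted p = 0.0283). Rfc4 was at 214, 102, 262 and 174 RPKM and 105, 102, 116 and 115 RPKM (log2 fold change -0.72, SE 0.18, edgeR adjusted p = 0.0442). Pcna was at 239.6, 128, 352 and 223 RPKM and 120.2, 126, 149 and 149 RPKM (log2 fold change -0.73, SE 0.19, edgeR adjusted p = 0.0472). In all 3 genes Ifnar +/- replicates 1, 3 and 4 stood high and replicate 2 lay within or near the Ifnar -/- range. Gins2 (log2 fold change -0.84, SE 0.23, edgeR adjusted p = 0.0492) and Rfc2 (-0.50 ± 0.14 SE) were the others. The interaction of the 2 genotypes called 0 members in edgeR (18 at an unadjusted p under 0.05, 10 by DESeq2, 0.0115% of all genes called). In the Ifnar contrast in Flt3 +/+, HSC markers were higher for 3 of 14 and lower for 1, and progenitor and myeloid markers were lower for 2 of 10. The latter summed to 1141 to 7464 RPKM in Ifnar +/- and 1000 to 1104 RPKM in Ifnar -/- libraries, with none at 0 in every library of a group, and their part was not tested.

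Those Ifnar +/-, Flt3 +/+ libraries differed from each other in another respect. The rank correlation, over genes, of a library's deviations from the mean with exon length was -0.41, 0.42, -0.48 and -0.37 in replicates 1 to 4. Mcm6 was at 33.8, 146, 33.7 and 37.3 RPKM and Dut at 14.96, 44.6, 13.4 and 10.7 RPKM, lower in replicates 1, 3 and 4 by a wide margin. In Ifnar +/-, Flt3 ITD/+ libraries Mcm6 was at 144, 146, 166 and 148 RPKM, and in Ifnar -/-, Flt3 +/+ at 86.7, 141, 139 and 142 RPKM. Ifnar -/-, Flt3 ITD/+ replicates 1 and 5 were low again, with Mcm6 at 36.4, 103, 123, 119.9 and 60.3 RPKM and Dut at 13.4, 33.4, 61.6, 63.0 and 17.1 RPKM. The correlation in these 5 libraries was -0.08, 0.25, -0.08, -0.16 and -0.28, in the same order. In wild type P0 HPC, Mcm6 was at 159.5 to 174 RPKM in the 3 libraries at -0.27 to -0.34. In age series HPC at P14, replicates 1 and 2 were at -0.31 and -0.35, with Mcm6 at 33.4 and 105 RPKM. E16 HPC replicate 2 was at 0.04, with Mcm6 at 62.3 RPKM and Dut at 19.4 RPKM. Each correlation is taken around the mean of its own set of libraries, so values of different sets are not on one scale. Whether the correlation accounts for the levels of Mcm6 and Dut was not tested. Neither gene was called in any P14 contrast.

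Orc1 was not called without replicate 3 or 4 of that group or without any 1 of the Flt3 ITD/+ libraries. The Ifnar contrast in Flt3 +/+ called 1 member without replicate 4 of that group and 0 without its replicate 1 or 3 or without any 1 of the Ifnar -/- libraries. Leaving out Ifnar +/-, Flt3 +/+ replicate 2 left only the 3 libraries of negative correlation in that group and raised the count to 21 for the ITD contrast in Ifnar +/-, 22 for the Ifnar contrast in Flt3 +/+ and 20 for the interaction. In the first of these 12 members were higher, led by Pole, Mcm6 and Pola1, and 9 lower, led by Rfc4, Tk1 and Pcna. Over all genes 5804 were then called, against 846 with all libraries. With the length correlation as a covariate, a setting added after the values were seen, 0 members were called in each of the 5 contrasts. The correlation differed between these genotype groups, so the covariate takes up part of their differences and cannot be told apart from genotype. Genes followed throughout were not called with all libraries: for the ITD in Ifnar +/-, Mcm5 (0.23 ± 0.17 SE), Mcm2 (0.74 ± 0.23 SE), Tyms (-0.47 ± 0.19 SE), Rrm2 (0.08 ± 0.15 SE), Cdc6 (0.18 ± 0.14 SE), Cdc45 (-0.11 ± 0.16 SE), Slbp (0.05 ± 0.12 SE) and Pola1 (0.72 ± 0.22 SE).

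**Figure D5:**
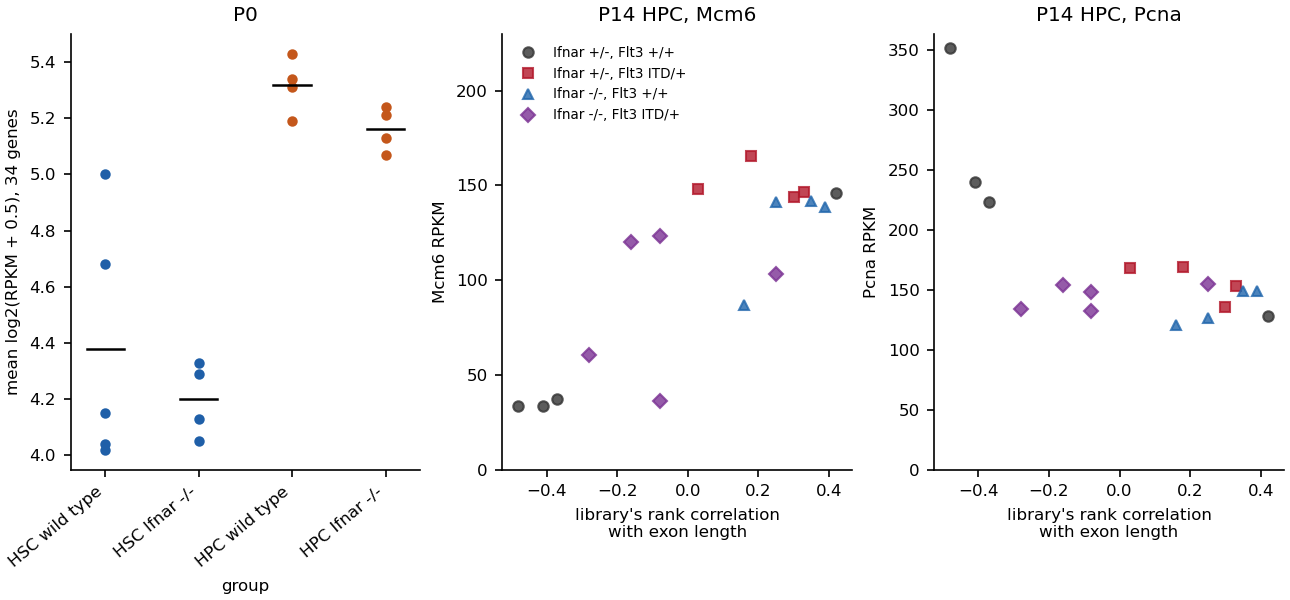
Left, mean log2(RPKM + 0.5) of the 34 genes in each P0 library by cell type and labelled genotype, with bars at group means. Middle and right, RPKM of Mcm6 and Pcna in each P14 HPC library against that library's rank correlation with exon length, by genotype, where 3 Ifnar +/-, Flt3 +/+ libraries at -0.37 to -0.48 have Mcm6 at 33.7 to 37.3 RPKM and Pcna at 223 to 352 RPKM.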

How the data were processed

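RNA-seq of sorted mouse HSC and HPC was analysed in 80 libraries and 20 groups, taken from the labels. Per the labels' protocols, RNA was extracted with a Qiagen kit and amplified with a Clontech kit. Per the submitters' processing notes, STAR 3.0.4 and featureCounts 1.4.5 (Subread) were used. The genome build is not given in the sources used here. The authors deposited raw read counts per gene for HPC ages and genotypes, and RPKM for HSC ages. Those RPKM gave back whole reads for 25622 of 25622 genes (100% of values within 1e-05 reads), with exon lengths from GENCODE M21 or solved from the values, and HPC counts were divided by the same lengths. A value column that matched no sample (1 column) was not used, and 2 rows that are not mouse genes (at most 0.000144% of reads) were left out.

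HSC ages, and HSC against HPC, were tested with limma 3.58.1 on log2(TMM-scaled RPKM + 0.5), robust with a trend, for genes above 1 RPKM in 3 libraries. Fold changes on that scale understate the change of low genes. Counts were tested with edgeR 4.0.16 (quasi-likelihood, TMM, its default filter), with DESeq2 1.42.0 as an alternative, in R 4.3.3. p-values were adjusted by Benjamini-Hochberg over all genes, and the code was tested on simulated data. Alternatives were the pseudocount, filter, scaling, tool, replicate block, each library left out, and steps added after seeing the data. Values are given for 9 genes of all roles, for the called members of smallest adjusted p (at most 4 a direction), and for those called against the majority. Mcm6 and Dut at P14, and in E16 HPC, were chosen after their values were seen. The members, lists and rules were chosen with earlier results of these data known.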

Additional observations from a re-analysis of the deposited data

Results flagged for a closer look

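The 9 genes followed throughout and the mean level were checked in each group of 4 or 5 libraries. Of these 170 checks 8 found a library far from the rest of its group, and chance gives about 1 in 20. In HSC, adult replicate 1 had a mean log2 level of the 34 genes of 4.78, against 5.21 to 5.29 in the other adult libraries. Pcna stood at 73.9 RPKM in P7 replicate 1, against 48.4 to 50.7 RPKM. Pola1 stood at 9.47 RPKM in E16 replicate 3, against 11.2 to 11.3 RPKM. In HPC of the age series, adult replicate 4 had a mean log2 level of 5.27, against 5.45 to 5.49, and Mcm5 was at 223 RPKM in P0 replicate 3, against 308 to 319 RPKM. Among genotypes, Cdc6 was at 27.8 RPKM in wild type P0 HPC replicate 4, against 19.6 to 19.8 RPKM. Slbp was at 46.2 RPKM in Ifnar +/-, Flt3 ITD/+ replicate 2, against 39.2 to 39.5 RPKM. Mcm2 was at 55.0 RPKM in Ifnar -/-, Flt3 +/+ replicate 1, against 87.5 to 90.8 RPKM.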

How the results depend on the processing

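Counts of called members moved by over 1.5 times as follows, and the cause was not tested. Without the filter on low values, 11 members were called for HSC E18 against E16 (17 in the report) and 2 for P14 against P7 (5). With DESeq2 the counts were 8 for Ifnar -/- in P0 HPC (5), 11 for the ITD in Ifnar +/- (1), 14 for Ifnar -/- in Flt3 +/+ (5), 1 for Ifnar -/- in Flt3 ITD/+ (0) and 10 for their interaction (0). With the length covariate, added after seeing the data, they were 11 for HPC Adult against P14 (17), 2 for Ifnar -/- in P0 HPC (5), 0 for the ITD in Ifnar +/- (1) and 0 for Ifnar -/- in Flt3 +/+ (5).

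Deviations of same-numbered libraries had median correlations of -0.01 in HSC ages, -0.02 in HPC ages, 0.07 and 0.01 in P0 HSC and HPC, and 0.11 at P14. For libraries of different numbers the medians were 0.00, -0.00, -0.04, -0.02 and -0.03, in that order. The medians showed no pairing by number in the age series. At P14, 13 of 24 same-numbered pairs were over 0.1, so pairing cannot be set aside there. The replicate block gave 2 called members for Ifnar -/- in P0 HPC and 9 for the ITD in Ifnar +/-. It moved no other count by over 1.5 times.

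Leaving out a library gave these ranges. In HSC they were 9 to 20 for E18 against E16, 5 to 11 for P7 against P0, 1 to 6 for P14 against P7, 1 to 6 for Adult against P14, 18 to 24 for Adult against E16 and 4 to 13 for Adult against P0. In HPC they were 1 to 2 for P14 against P7, 12 to 18 for Adult against P14 and 4 to 15 for Adult against E16. HSC against HPC gave 5 to 17 at E16, 26 to 28 at P0, 24 to 24 at P7, 26 to 27 at P14, 11 to 16 in the adult, 0 to 1 for the interaction with age and 24 to 32 in the genotype series. The genotypes gave 0 to 7 for Ifnar -/- in P0 HPC, 0 to 21 for the ITD in Ifnar +/-, 0 to 22 for Ifnar -/- in Flt3 +/+ and 0 to 20 for the interaction. The comparisons not listed stayed at 0. Within a comparison, the estimate of a called member did not change sign under any of these settings. Between the age and genotype series, Cdt1 at P0 did reverse. Depth limits most the low members, such as Orc1 in E18 HSC (0.77 to 3.80 RPKM), where libraries held 7573524 to 17671401 reads.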
